A study of Mus musculus with 30 samples.

Results

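The CC chemokines described here are 10 genes, Ccl2, Ccl3, Ccl4, Ccl5, Ccl6, Ccl7, Ccl8, Ccl9, Ccl12 and Ccl24, taken by name from the 43629 genes of a count table of mouse fracture callus. All 10 were found in the table. The libraries were poly(A) RNA-seq libraries of callus, the repair tissue that forms around a broken bone, from male C57BL/6J mice. Each right tibia had been given an open mid-diaphyseal osteotomy, a surgical cut stabilised by an intramedullary nail. Lean mice were kept on a lean control diet, and DIO mice (diet-induced obesity) on a high-fat diet from 6 weeks of age. Mice of both diets were 20 weeks old at fracture, and no group carried a genetic change. Callus of both diets was taken on d3, d5, d7 and d10 after fracture and DIO callus also on d14 and d21, with 3 mice in each of the 10 groups and 1 callus of 1 mouse in each of the 30 libraries. Lean callus of d14 and d21 was not analysed here.

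Chemokines are small secreted proteins that guide leukocytes along a concentration gradient through receptors of the G protein-coupled family. In the CC class the first pair of conserved cysteines is adjacent, hence the name. Ccl2, Ccl7, Ccl8 and Ccl12 make up the monocyte chemoattractant group, and Ccl2, Ccl7 and Ccl12 act largely through the receptor Ccr2. Ccl3, Ccl4 and Ccl5 are inflammatory chemokines for macrophages and T cells, Ccl6 and Ccl9 are rodent myeloid chemokines that bind Ccr1, and Ccl24 (eotaxin-2) binds Ccr3 on eosinophils. In a fracture such ligands are known for the recruitment of monocytes and other leukocytes in the inflammatory phase and of osteoclast precursors in the later, resorptive phase.

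The codons of the cysteine pair that gives the class its name are shown first, because this pair is what the 10 members share in sequence. They are printed for 9 of the members, and each line holds 30 bases of the coding strand in the GRCm38 build, 5′ to 3′, with the 2 cysteine codons in capitals, and each stretch lies within 1 coding exon.
Ccl2: gccccactcaccTGCTGCtactcattcacc
Ccl7: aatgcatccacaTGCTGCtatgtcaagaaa
Ccl8: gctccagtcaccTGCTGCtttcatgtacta
Ccl12: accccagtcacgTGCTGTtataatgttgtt
Ccl4: cctcccacttccTGCTGTttctcttacacc
Ccl5: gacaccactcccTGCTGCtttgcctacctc
Ccl6: acttcttcagacTGCTGCttctcttatgcc
Ccl9: gactcttcagatTGCTGCctgtcctataac
Ccl24: atcccctcatctTGCTGCacgtcctttatt
The pair was encoded as TGCTGC in 8 members and as TGCTGT in Ccl4 and Ccl12. It began at codon 50 of Ccl6 and codon 57 of Ccl9, against codons 32 to 34 of the other 8 members, so this pair carried a longer stretch before the cysteines.

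Except for Ccl24, all members lie on chromosome 11, in the GRCm38 coordinates of GENCODE M21. Ccl2 (chr11:82035571-82037453), Ccl7 (chr11:82045712-82047525), Ccl12 (chr11:82101845-82103400) and Ccl8 (chr11:82115185-82116799) follow each other on the plus strand. Ccl5 (chr11:83525778-83530518), Ccl9 (chr11:83572919-83578636), Ccl6 (chr11:83587882-83593087) and Ccl3 (chr11:83647844-83649355) lie on the minus strand of a second cluster, with Ccl4 (chr11:83662584-83664683) on its plus strand. Ccl24 (chr5:135569937-135573049) is on the minus strand of chromosome 5. Of the pairs compared, the coding sequences of Ccl3 and Ccl4 were identical at 69.6% of the longer sequence, those of Ccl7 and Ccl8 at 66.7% and those of Ccl6 and Ccl9 at 65.8%. The lowest value was 39.4%, for Ccl2 and Ccl5, whose coding sequences differ in length, with 444 and 273 bases. Within their alignment 175 of 263 bases were identical, against 194 of 282 for Ccl7 and Ccl8. For 9 members no stretch of 53 bases, the length of 1 read, was found in the transcripts of another gene, and for Ccl9 this held for all but 48 of 2993 stretches.

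Promoter sequence was at hand in RefSeq (GRCm38.p6) for 5 of the 10 members. TATAAA, the core of the TATA box, searched on both strands within the 100 bases before the start, was present in 3 of these 5 and in 5.56% of 32851 promoters. Those of Ccl8 (chr11:82115085-82115184, plus strand) and Ccl12 (chr11:82101745-82101844, plus strand) are printed because these neighbours hold it at nearly the same distance, 32 and 31 bases before the start, with TATAAA in capitals.
Ccl8: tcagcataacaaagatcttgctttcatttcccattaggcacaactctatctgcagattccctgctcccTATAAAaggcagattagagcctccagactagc
Ccl12: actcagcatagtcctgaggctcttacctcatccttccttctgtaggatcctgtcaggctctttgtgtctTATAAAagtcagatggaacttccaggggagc
The aligned windows were identical at 63.0% of bases, against 45.0% to 60.0% in the other pairs of these 5 promoters. Without gaps, at the same distance from the start, Ccl8 and Ccl12 shared 32 of 100 bases. In Ccl9 the letters stood 92 and 94 bases before the start, on either strand, and in Ccl3 and Ccl6 they were not in this window. A match is a description of the sequence only.

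The libraries held 13247122 to 26365620 counts each, with a median of 16854427, and values are given as CPM, a gene's share of the library's counts on a fixed total, scaled by TMM factors, in the order of replicates 1, 2 and 3. With 3 counts taken as the detection floor, 9 members were detected in all 30 libraries and Ccl24 in 29. Markers of osteoblasts and chondrocytes, which callus is made of, were present in every group, and summed skeletal muscle markers ran from 437 to 29980 CPM, although soft tissue had been removed. In 1 library, Lean d10 replicate 1, the summed chondrocyte markers reached 76490 CPM against 16473 and 15080 in the other mice of its group, and summed neutrophil markers 416 CPM against 6437 and 2999. Tests of Lean d10 are therefore also given without it. The data are from bulk tissue, so fewer cells of a type and less RNA per cell cannot be told apart. Differences were tested with edgeR's quasi-likelihood F-test, two-sided, with Benjamini-Hochberg adjustment over all genes tested and a threshold of 0.05. A gene is called changed only past that threshold.

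Per kilobase of exon, which allows genes to be compared, 3 members led. The mean of the 10 group means was 51 CPM per kb for Ccl6, 47.9 for Ccl9 and 47.2 for Ccl8, followed by Ccl7 at 19, Ccl2 at 9.78, Ccl5 at 8.4, Ccl3 at 5.52, Ccl12 at 4.9, Ccl4 at 4.23 and Ccl24 at 0.925. Neighbours in this order were often not apart. All 3 libraries of Ccl6 exceeded those of Ccl9 in 4 groups and lay below them in 3, and the same counts held for Ccl9 against Ccl8. Ccl8 was above Ccl7 without overlap in 5 groups and never below it, Ccl7 above Ccl2 in 3 and never below it, and Ccl4 above Ccl24 in 6 and never below it. Ccl3, Ccl12 and Ccl4 could hardly be ordered, with 1 group in each direction.

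The leading member changed with the day. Per kb of exon, Ccl8 led on d5, with 128 ± 44.7 CPM per kb (SD, n = 3) in Lean and 82.4 ± 5.81 in DIO callus. Ccl9 led on d10 with 81.8 ± 3.35 in Lean and 78 ± 15.7 in DIO callus, and Ccl6 led in DIO callus on d14 (83.2 ± 22.3) and d21 (84.1 ± 14). In each of these 6 groups the libraries of the leading gene lay above those of the next one. On d3 and d7 the leading gene overlapped the next.

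In the members' summed level the mean share of the monocyte chemoattractants was highest on d5 and lowest on the last day of either diet. In Lean callus Ccl2, Ccl7, Ccl8 and Ccl12 together held 46.9% ± 12 of the summed CPM per kb on d3, 60.9% ± 10.9 on d5 and 18.9% ± 1.99 on d10. In DIO callus they held 56.4% ± 0.766 on d3, 66.1% ± 1.96 on d5 and 8.68% ± 2.68 on d21. Ccl6 and Ccl9 together held 46.7% ± 10.9 on d3, as much as the monocyte group, 31.7% ± 8.4 on d5 and 71.5% ± 0.948 on d10 in Lean callus. In DIO callus they held 39.8% ± 1.64 on d3, 29.1% ± 2.79 on d5 and 76.6% ± 5.38 on d21 (mean ± SD, n = 3 each). These shares are descriptions and were not tested.

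**Figure D1:**
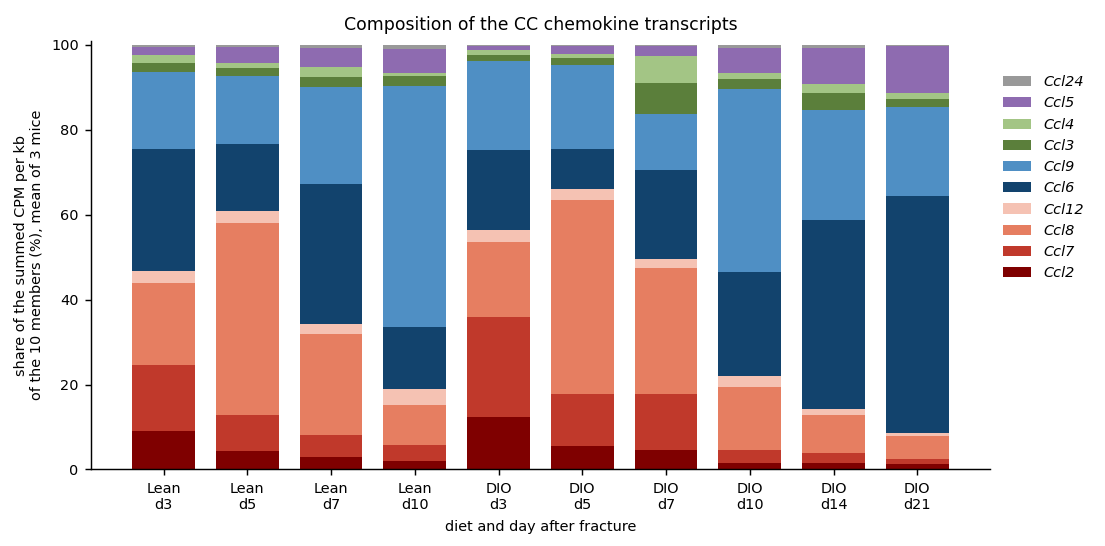
Stacked bars of the mean share (%) of each CC chemokine in the summed level of the 10 members, as CPM per kb of exon, for each diet and day (mean of 3 mice). The part of Ccl2, Ccl7, Ccl8 and Ccl12 is 66.1% on d5 and 8.68% on d21 in DIO callus.

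Ccl2, the prototype monocyte attractant, was highest on d3 in both diets. In Lean callus it stood at 34.5, 15.8 and 24.4 CPM on d3, at 18.5, 12.8 and 11 on d5, at 8.96, 5.55 and 6.29 on d7 and at 3.44, 3.02 and 3.84 on d10. In DIO callus it stood at 40.7, 29.8 and 22.5 CPM on d3, 6.47, 12.8 and 14.5 on d5, 16, 13.8 and 2.82 on d7, 3.45, 6.13 and 0.98 on d10, 5.45, 1.36 and 2.54 on d14 and 0.921, 0.881 and 4.56 on d21. Every d3 library lay above every d10 library in Lean callus, and above every d21 library in DIO callus. The ratio of the means was 7.25 for d3 over d10 in Lean and 14.6 for d3 over d21 in DIO callus. On d7 replicate 3 of the DIO group was far below the other 2 mice.

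Ccl7, the neighbour of Ccl2 on chromosome 11 and like it a ligand of Ccr2, followed the same course. Its Lean values were 31.9, 22.4 and 37.3 CPM on d3, 25.6, 14.4 and 16.6 on d5, 13.2, 7.76 and 5.03 on d7 and 7.08, 3.89 and 1.32 on d10. Its DIO values were 55.6, 38.2 and 30.1 CPM on d3, 15.1, 16.9 and 21.2 on d5, 23.5, 37.3 and 3.97 on d7, 2.61, 9.15 and 1.4 on d10, 5.23, 2.59 and 3.06 on d14 and 0.23, 0.47 and 3.06 on d21. The lowest of these, on d21, rests on 4 counts. The d3 mean exceeded the d10 mean 7.45-fold in Lean callus and the d21 mean 33-fold in DIO callus, without overlap. The mouse with the highest Ccl2 also had the highest Ccl7 in 7 of the 10 groups, and over the 10 group means the log2 levels of both genes had a Pearson r of 0.975. They come from the same libraries.

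Ccl8, a monocyte attractant that in mice acts through Ccr8, had its peak on d5 instead of d3. It measured 17.3, 15.2 and 42.1 CPM on d3, 89.4, 43.8 and 63 on d5, 30, 31.3 and 16.2 on d7 and 3.44, 8.78 and 9.48 on d10 in Lean callus. In DIO callus it measured 32.5, 20.3 and 10.9 CPM on d3, 45.2, 39.2 and 41.9 on d5, 16.2, 43.7 and 22.7 on d7, 23, 15.4 and 4.83 on d10, 8.2, 8.37 and 8.71 on d14 and 3.4, 6.28 and 2.64 on d21. All 3 libraries of d5 lay above all 3 of d3 in either diet, with means 2.63-fold apart in Lean and 1.98-fold in DIO callus. Neither step passed the test, with adjusted p = 0.1692 in Lean and 0.349 in DIO callus by edgeR's quasi-likelihood test. Its receptor Ccr8 did not exceed 0.176 CPM in any library.

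Ccl12, a mouse monocyte attractant close to Ccl2 in function, was low throughout. In Lean callus it ran from 1.32 to 7.2 CPM with overlapping days. DIO callus had 4.8, 3.28 and 2.24 CPM on d3, 1.52, 2.39 and 3.49 on d5, 2.45, 2.13 and 1.68 on d7, 3.68, 2.38 and 1.89 on d10, 1.43, 0.826 and 1.27 on d14 and 1.04, 0.176 and 0.829 on d21. The 3 libraries of d14 and the 3 of d21 lay below all libraries of d3, and the d3 mean was 5.06 times the d21 mean.

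**Figure D2:**
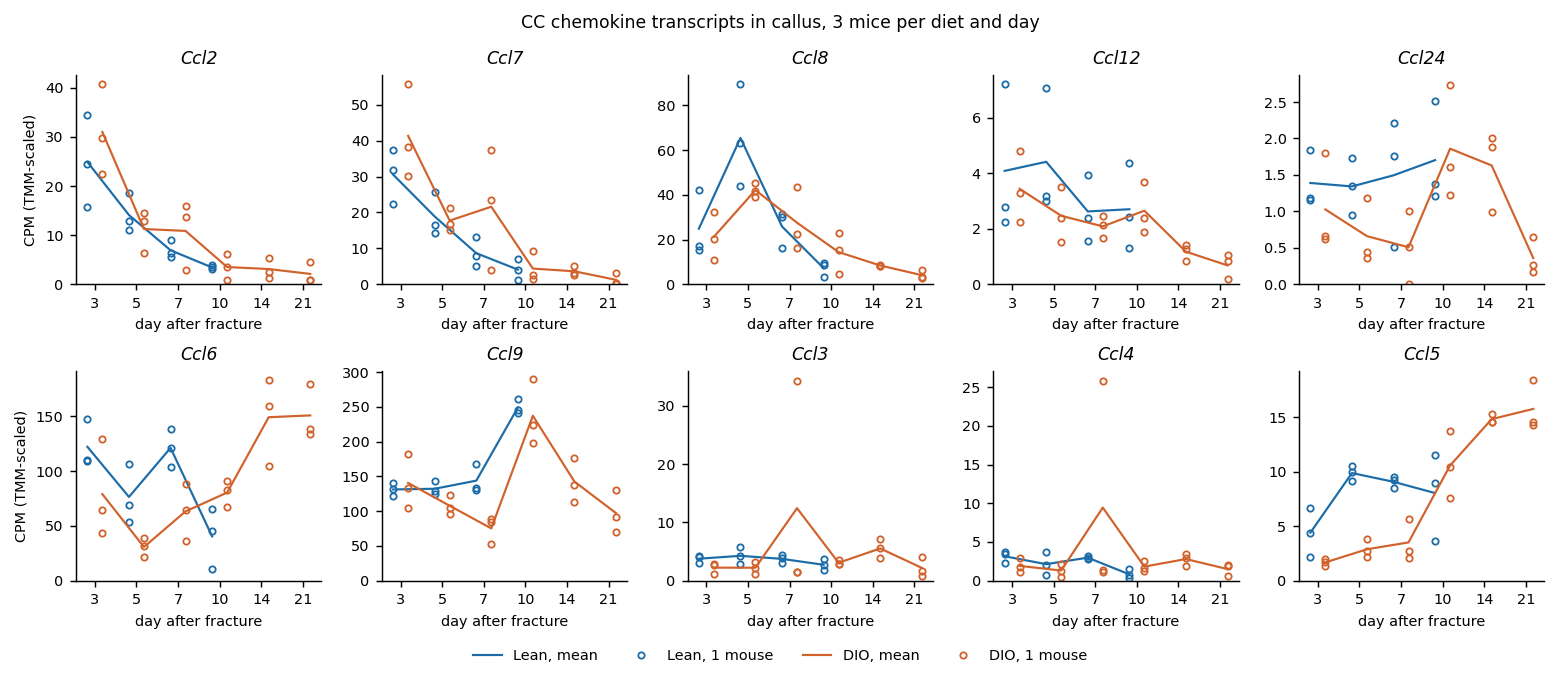
CPM (TMM-scaled, linear axes that start at 0) of the 10 CC chemokines by day after fracture, 1 point per mouse and a line through the mean of 3 mice for each diet. Ccl2 and Ccl7 are highest on d3, Ccl8 on d5 and Ccl9 on d10 in both diets, and 1 DIO mouse of d7 stands at 34.3 CPM of Ccl3 and 25.8 CPM of Ccl4.

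Ccl9, a myeloid chemokine that osteoclasts make and that binds Ccr1, rose late. Its Lean values were 132, 140 and 122 CPM on d3, 143, 129 and 125 on d5, 168, 133 and 131 on d7 and 261, 246 and 241 on d10. Its DIO values were 183, 134 and 105 CPM on d3, 105, 95.6 and 123 on d5, 84, 89 and 52.9 on d7, 224, 198 and 290 on d10, 138, 114 and 176 on d14 and 130, 91.6 and 70.2 on d21. The d10 libraries lay above all libraries of the other 3 days in Lean callus, and above all of the other 5 days in DIO callus. The d10 mean exceeded the d7 mean 1.73-fold in Lean and 3.15-fold in DIO callus.

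Ccl6, the neighbour of Ccl9 and like it a ligand of Ccr1, took a different course. It stood at 110, 148 and 109 CPM on d3, 69, 107 and 53.6 on d5, 104, 139 and 121 on d7 and 10.8, 65.5 and 45.2 on d10 in Lean callus. In DIO callus it stood at 129, 64.3 and 44 CPM on d3, 39.3, 21.6 and 31.5 on d5, 64.5, 36.7 and 88.8 on d7, 83.1, 91.5 and 66.9 on d10, 160, 183 and 105 on d14 and 180, 134 and 139 on d21. Lean callus thus had its lowest Ccl6 on d10, below every library of d3 and d7, whereas in DIO callus the lowest mean was on d5 and the highest were on d14 and d21. Over the 10 group means the r of Ccl6 with Ccl9 was -0.18, and the mouse highest in one was highest in the other in 3 of 10 groups.

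Ccl5 (RANTES), which T cells and natural killer (NK) cells make in quantity, rose over the DIO days, while its change over the Lean days did not pass the test. Its Lean values were 2.19, 6.7 and 4.35 CPM on d3, 10, 10.5 and 9.15 on d5, 8.49, 9.49 and 9.26 on d7 and 3.63, 11.5 and 9 on d10. Its DIO values were 2.04, 1.68 and 1.33 CPM on d3, 2.14, 3.82 and 2.7 on d5, 2.77, 2.13 and 5.65 on d7, 13.7, 10.4 and 7.63 on d10, 14.6, 15.3 and 14.6 on d14 and 14.3, 18.4 and 14.6 on d21. The d10 libraries of DIO callus lay above all of d7, by 3-fold in the means, and the d21 mean was 9.35 times the d3 mean. In Lean callus the higher level was already there on d5, where all 3 mice lay above all 3 of d3, but d10 overlapped d3. The Lean adjusted p was 0.166 over all days, 0.1973 for d5 against d3 and 0.1177 for d10 against d3 (edgeR).

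Ccl3 and Ccl4 (MIP-1α and MIP-1β), chemokines made by activated myeloid and lymphoid cells, were low except in 1 mouse. Ccl3 had 4.21, 4.02 and 3.1 CPM on d3, 4.17, 5.85 and 2.8 on d5, 4.33, 3.82 and 3.09 on d7 and 1.82, 3.69 and 2.7 on d10 in Lean callus. It had 2.82, 2.71 and 1.21 CPM on d3, 2.23, 3.28 and 1.18 on d5, 34.3, 1.47 and 1.55 on d7, 2.91, 3.53 and 2.8 on d10, 7.1, 5.6 and 3.91 on d14 and 1.67, 0.881 and 4.09 on d21 in DIO callus. Replicate 1 of DIO d7 thus stood far above the other 2 mice of its group and above all other libraries. For Ccl4 the same mouse had 25.8 CPM, against 1.18 and 1.34 in the other 2, while all other libraries ran from 0.3 to 3.7 CPM. In Lean callus Ccl4 fell from 3.68, 2.29 and 3.5 CPM on d3 to 0.689, 1.47 and 0.3 on d10, without overlap, a ratio of the means of 3.84.

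Ccl24, the eosinophil attractant among the members, was the lowest of them. Lean values ran from 0.515 to 2.52 CPM with overlap of all days. DIO values were 1.8, 0.615 and 0.666 CPM on d3, 0.446, 0.358 and 1.18 on d5, 1.01, 0.515 and 0 on d7, 1.23, 2.74 and 1.61 on d10, 0.99, 1.89 and 2.01 on d14 and 0.173, 0.646 and 0.259 on d21. The value of 0 rests on 0 counts in that library, where 3 counts correspond to 0.202 CPM. All d10 libraries lay above all of d7 and all d14 libraries above all of d21.

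Across the 4 Lean days, 4 of the 10 members changed (edgeR quasi-likelihood F-test, 3 degrees of freedom), where 19% of the 16471 genes tested did. They were Ccl2 (adjusted p = 0.001145), Ccl9 (0.001947), Ccl8 (0.007181) and Ccl7 (0.01172). Ccl6 had 0.08328 and Ccl4 0.1137, and without Lean d10 replicate 1 or 2 Ccl6 passed, with 0.03171 and 0.04511. The 4 calls held without Lean d10 replicate 1 (0.002935 to 0.01246).

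From d3 to d10 in Lean callus, 6 of 10 members changed, 5 downward and 1 upward, and 29.3% of all genes tested changed. Ccl2 fell by 2.82 ± 0.33 on the log2 scale (SE) with adjusted p = 0.0002608, and Ccl7 fell by 2.86 ± 0.53 with adjusted p = 0.00272. Ccl8 fell by 1.75 ± 0.48 (0.01807), Ccl6 by 1.56 ± 0.47 (0.02683) and Ccl4 by 1.90 ± 0.60 (0.03146), whereas Ccl9 rose by 0.96 ± 0.14 (0.0007717), all by edgeR's quasi-likelihood test. The median log2 fold change was -1.06 over the 10 members and 0.02 over all genes tested. Without Lean d10 replicate 1 the log2 change was -2.82 for Ccl2 (0.0009347), -3.52 for Ccl7 (0.001534), -1.10 for Ccl6 (0.01368) and 0.93 for Ccl9 (0.001727). In the same fit the adjusted p was 0.07978 for Ccl4 and 0.05163 for Ccl8, and Ccl5 passed with 1.25 (0.02064).

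The 3 smaller calls also rested on other single mice. Ccl4 did not pass without Lean d3 replicate 1 (adjusted p = 0.08113), Lean d3 replicate 3 (0.06691) or Lean d10 replicate 3 (0.08034). Ccl6 did not pass without Lean d3 replicate 1 (0.05145), Lean d3 replicate 2 (0.0847) or Lean d10 replicate 3 (0.05089). Ccl8 did not pass without Lean d3 replicate 3 (0.07486).

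Between neighbouring Lean days fewer members passed. The step from d5 to d7 was not tested on its own. From d3 to d5, 0 of 10 passed edgeR's test and 3 had an unadjusted p under 0.05, with 1 (Ccl8) past the threshold in DESeq2, where 0.449% of all genes passed edgeR's test. From d7 to d10, 1 of 10 passed edgeR's test, Ccl9, with a rise of 0.80 ± 0.14 on the log2 scale (adjusted p = 0.02123), and 2.73% of all genes did. At this step 5 members had an unadjusted p under 0.05 and DESeq2 called 5 (Ccl2, Ccl4, Ccl6, Ccl8 and Ccl9). Ccl2 had an adjusted p of 0.09276 with edgeR and 0.03951 with DESeq2. The call of Ccl9 was lost without Lean d7 replicate 2 (0.09449) or replicate 3 (0.08351) and kept without Lean d10 replicate 1 (0.04272). Ccl6, with a log2 change of -1.57 (0.07935), passed without Lean d10 replicate 2, with -2.11 (0.04347), and had -1.10 (0.08904) without Lean d10 replicate 1. Ccl8 with -1.82 (0.06217) and Ccl4 with -1.85 (0.09276) did not pass from d7 to d10, although these values were about as large as their changes from d3 to d10.

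Across the 6 DIO days, 9 of 10 members changed (edgeR, 5 degrees of freedom), beside 59.1% of the 16995 genes tested. Adjusted p was 8.168e-07 for Ccl5, 0.0002298 for Ccl8, 0.0002609 for Ccl7, 0.0003624 for Ccl6, 0.0004354 for Ccl9, 0.0006486 for Ccl2 and 0.006862 for Ccl12. Ccl24 was not called, with 0.06767, and passed without DIO d5 replicate 3 (0.047), DIO d7 replicate 1 (0.03205) or 3 (0.03197) or DIO d21 replicate 2 (0.04922).

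The remaining calls, Ccl4 (0.031) and Ccl3 (0.04636), were less steady. Ccl4 was lost without DIO d7 replicate 1, the mouse with the high value, with adjusted p = 0.3768 by edgeR, and without DIO d5 replicate 2, with 0.05009. Ccl3 kept its call without DIO d7 replicate 1 (0.04592) but lost it without any 1 library of d3, d5, d10 or d14 or without d21 replicate 1 or 2, with adjusted p from 0.05252 to 0.07103.

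From d3 to d21 in DIO callus, 6 of 10 members changed, 4 downward and 2 upward, beside 45.3% of all genes. B cell, erythroid and adipocyte markers rose over the same time, with values given with the other markers. Ccl7 fell by 5.00 ± 0.85 on the log2 scale (adjusted p = 0.000159) and Ccl2 by 3.85 ± 0.75 (0.0005058). Ccl8 fell by 2.37 ± 0.50 (0.0009413) and Ccl12 by 2.32 ± 0.50 (0.00113). Ccl5 rose by 3.22 ± 0.34 (2.077e-06) and Ccl6 by 0.94 ± 0.35 (0.03758), all by edgeR. The call of Ccl6 was lost without DIO d3 replicate 2 (0.1306) or 3 (0.1761) or DIO d21 replicate 1 (0.1305) or 3 (0.05839). The other 5 calls held without any 1 library of the fit. The median log2 fold change was -1.01 over the 10 members and 0.03 over all genes.

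Of the 3 steps tested between neighbouring DIO days, that from d7 to d10 carried calls, while d5 to d7 and d10 to d14 were not tested on their own. Ccl9 rose by 1.66 ± 0.26 (adjusted p = 0.0004118) and Ccl5 by 1.58 ± 0.32 (0.002929), so 2 of 10 members passed edgeR's test, beside 13% of all genes. Without DIO d7 replicate 3, 6 members passed, with Ccl2 at -2.08 (0.04662), Ccl3 at -2.54 (0.04133), Ccl4 at -2.89 (0.02658) and Ccl7 at -2.79 (0.01018) in addition. Ccl7, with 0.0515 in the main fit, also passed without DIO d10 replicate 2 (0.02021) or any 1 library of d21 (0.02797 to 0.04464). It had 0.09873 without DIO d7 replicate 1. Ccl4, with 0.08835 in the main fit, also passed without DIO d7 replicate 2 (0.0318). Without DIO d7 replicate 1 the fold changes of Ccl3 and Ccl4 turned positive, to 1.03 (0.3017) and 0.53 (0.6712). From d3 to d5, 0 of 10 passed with edgeR, 4 had an unadjusted p under 0.05 and 1 (Ccl6) passed in DESeq2, and 1.68% of all genes passed with edgeR. Ccl6 passed there without DIO d3 replicate 3 (0.02768), DIO d7 replicate 2 (0.0364) or DIO d7 replicate 3 (0.04884). From d14 to d21, 0 of 10 passed with edgeR, 3 had an unadjusted p under 0.05 and 1 (Ccl24) passed in DESeq2, whereas 19.6% of all genes passed with edgeR. Ccl24 passed there without DIO d7 replicate 3 (0.02479) or DIO d21 replicate 2 (0.03883).

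The study asked how obesity alters the response to fracture, and the diets were compared within each day. Among the members Ccl5 was the one that passed the test, with lower values in DIO than in Lean callus. All DIO libraries lay below all Lean libraries on d3, d5 and d7, with Lean means of 4.42, 9.87 and 9.08 CPM and DIO means of 1.68, 2.89 and 3.52. On d10 the groups overlapped, with means of 8.06 and 10.6 CPM, or 10.3 CPM in Lean callus without Lean d10 replicate 1.

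On d5, 1 of 10 members passed, Ccl5, lower in DIO callus by a log2 change of -1.77 ± 0.25 (adjusted p = 0.03844, edgeR), beside 1.08% of all genes. DESeq2 called 2, Ccl5 and Ccl6. The call of Ccl5 was lost without Lean d5 replicate 2 (0.1148) or DIO d5 replicate 1 (0.1113), 2 (0.08796) or 3 (0.2133). All 10 members had a negative fold change on this day, with a median of -0.75, against 0.01 over all genes tested. These 10 values come from the same 6 libraries, and their shared sign was not tested. Ccl6 stood at -1.31 (0.08137), with all DIO libraries below all Lean ones and a DIO mean 0.403 times the Lean mean, and passed without Lean d5 replicate 3 (0.02514).

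On d7, 0 of 10 passed edgeR's test and 3 had an unadjusted p under 0.05, beside 2.32% of all genes past the threshold. The 3 were Ccl9 at -0.93 (adjusted p = 0.06257), Ccl5 at -1.35 (0.09307) and Ccl6 at -0.92 (0.1337), and DESeq2 called these 3 among the 8 members to which it gave an adjusted p. In each, all DIO libraries lay below all Lean ones. Without DIO d7 replicate 3, 4 members passed, Ccl5 with 0.02115 and Ccl6 with 0.03216 among them.

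On d3, 0 of 10 members passed with edgeR, 1 (Ccl5) had an unadjusted p under 0.05 and DESeq2 called 1 (Ccl5). Of all genes 0% passed with edgeR, while 2374 of 15772 had an unadjusted p under 0.05 and DESeq2 called 753. On d10, 0 of 10 members passed with either tool and 0 had an unadjusted p under 0.05. Of all genes 0% passed there with edgeR, 1082 of 15341 had an unadjusted p under 0.05 and DESeq2 called 56. On d10 Ccl6 was higher in all DIO than in all Lean libraries, at 1.99 times the Lean mean, a difference that did not pass. Without Lean d10 replicate 1 the DIO mean of Ccl6 was 1.45 times the Lean mean, with a log2 change of 0.54 (adjusted p = 0.6857), and 0 of 10 members passed.

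Averaged over d3 to d10, 1 of 10 members passed, beside 2.46% of all genes. This was Ccl5, at -1.03 ± 0.20 on the log2 scale (adjusted p = 0.02271, edgeR). It did not pass without Lean d3 replicate 2 (0.05525), Lean d5 replicate 2 (0.05072), Lean d7 replicate 2 (0.05279) or DIO d3 replicate 3 (0.05191), and was -1.11 (0.002119) without Lean d10 replicate 1, where Ccl6 passed as well, with -0.57 (0.04395). Ccl9 passed without DIO d3 replicate 1 (0.04253). In the test of whether the diet difference changed between days, 0 of 10 members passed with edgeR, 3 had an unadjusted p under 0.05 and DESeq2 called 2 (Ccl5 and Ccl9), beside 1.65% of all genes with edgeR. The 3 were Ccl5 (adjusted p = 0.1047), Ccl9 (0.1229) and Ccl6 (0.1363), and without Lean d10 replicate 1 they had 0.2768, 0.2127 and 0.2628.

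**Figure D3:**
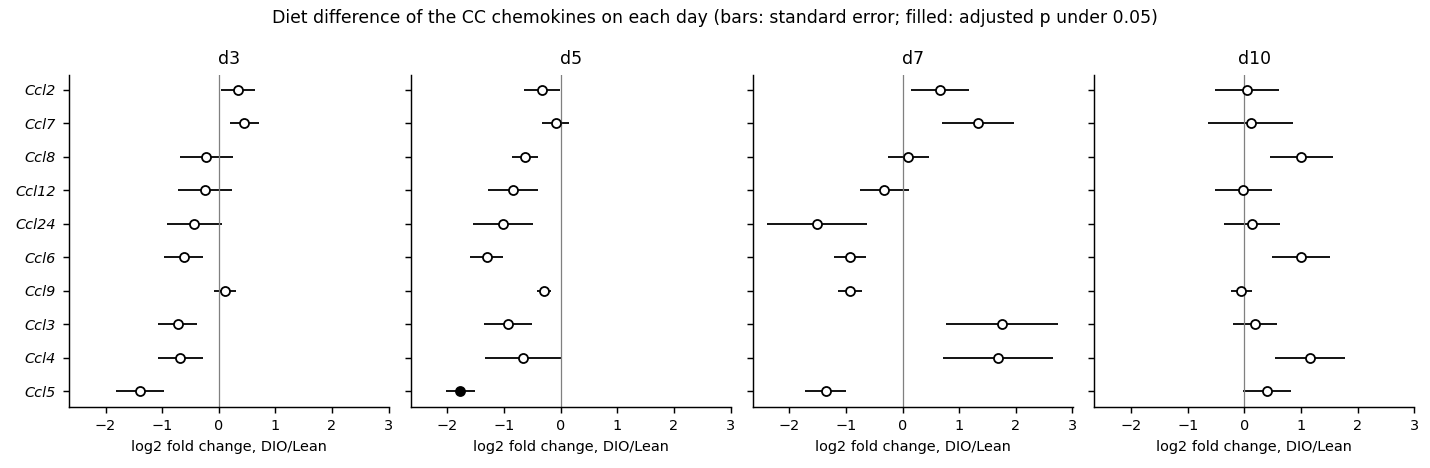
Log2 fold change of DIO against Lean callus (edgeR, ± SE, 3 mice per diet) for the 10 CC chemokines on each of the 4 days sampled in both diets, with filled points where the adjusted p is under 0.05. The filled point is Ccl5 on d5, at -1.77.

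Markers of cells that express these genes moved with several of the results. The summed level of 12 T and NK cell markers ran from 44.8 to 65.3 CPM in Lean and from 15.2 to 19.9 CPM in DIO callus on d5, with Cd3e, Cd3g, Gzma and Ncr1 at 0 in some DIO library. Of these markers 9 were tested on d5 and 2 were lower in DIO callus, beside 1.08% of all genes that passed. In DIO callus the sum ran from 10.2 to 14.8 CPM on d3 and from 89.9 to 103 CPM on d21. Over that time 11 of the 12 rose, beside 45.3% of all genes that changed. Ccl5 had the same direction in each case, and in Lean d10 replicate 1, where Ccl5 was 3.63 CPM, the sum was 11.9 CPM. The part of these cells in the level of Ccl5 was not tested.

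Summed osteoclast markers (8 genes) ran from 4179 to 5185 CPM in Lean d7 and from 12698 to 16156 CPM in Lean d10 callus. In DIO callus they ran from 1530 to 2260 CPM on d7 and from 13621 to 17545 CPM on d10. All 8 markers rose from d7 to d10 in either diet, where 2.73% of all genes in Lean and 13% in DIO callus changed. Ccl9 rose at the same step. On d7 it was lower in DIO callus without passing the test (adjusted p = 0.06257, edgeR). There 7 of 7 osteoclast markers tested were lower as well, beside 2.32% of all genes that passed. From d3 to d5 all 8 markers had a positive log2 change in either diet, not all of them called. Acp5 rose by 1.17 in Lean (adjusted p = 0.02646) and by 1.57 in DIO callus (0.01053), by edgeR. Ccl9 overlapped between d3 and d5 in either diet and was not called. Later in DIO callus the osteoclast sums were 9711 to 19033 CPM on d14 and 6811 to 9290 CPM on d21. On d14 Ccl9 lay below every library of d10, and on d21 it overlapped its level of d3. The part of osteoclasts in the level of Ccl9 was not tested.

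For Ccl6 the neutrophil markers (12 genes) are given, since neutrophils and their precursors express it. Their sum ran from 12497 to 27343 CPM on d3 and from 416 to 6437 CPM on d10 in Lean callus, and from 2535 to 4122 CPM on d3 and from 12366 to 29258 CPM on d21 in DIO callus. On d14 Ccl6 was as high as on d21 in DIO callus, with a neutrophil sum of 2816 to 8396 CPM. For Ccl2, Ccl7 and Ccl8 the 12 monocyte and macrophage markers are given, none of which was at 0. Their sum ran from 1991 to 2259 CPM on d3 and from 1570 to 1890 CPM on d10 in Lean callus. In DIO callus it ran from 1258 to 2600 CPM on d3, from 1677 to 1900 on d10 and from 1537 to 1859 on d21. On d5 it ran from 2060 to 2698 CPM in Lean and from 1471 to 1753 CPM in DIO callus. On d7 it ran from 1439 to 2238 CPM in Lean and from 1051 to 1184 CPM in DIO callus. The diets thus overlapped on d3 and d10 and did not on d5 and d7. Between Lean d3 and d10, 8 of the 12 changed, 6 downward and 2 upward, beside 29.3% of all genes. The part of these cells in the members' levels was not tested.

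From d3 to d21 in DIO callus all 8 B cell, all 8 erythroid and all 8 adipocyte markers rose as well, beside 45.3% of all genes that changed. The summed B cell markers ran from 14 to 16.8 CPM on d3 and from 622 to 894 CPM on d21, with Igll1, part of the receptor of B cell precursors, up by 8.84 on the log2 scale (adjusted p = 3.69e-07, edgeR). Igll1 was at 0 in some library of d3. The summed erythroid markers ran from 727 to 812 and from 27472 to 38527 CPM, and the summed adipocyte markers from 230 to 443 and from 1165 to 1230 CPM. Ccl5 and Ccl6 rose over the same days, and Ccl2, Ccl7, Ccl8 and Ccl12 fell. The part of these cells in the members' changes was not tested.

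**Figure D4:**
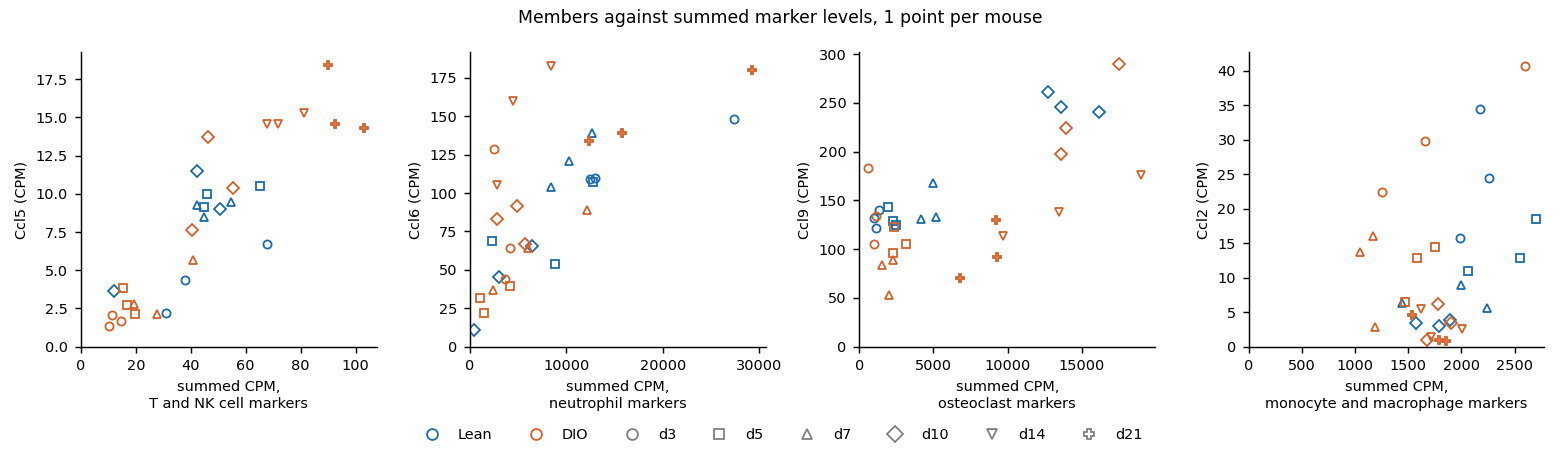
CPM of a CC chemokine (vertical axes) against the summed CPM of a marker list (horizontal axes) in the 30 libraries, for Ccl5 with T and NK cell, Ccl6 with neutrophil, Ccl9 with osteoclast and Ccl2 with monocyte and macrophage markers. For Ccl5 the DIO mice of d3 and d5 lie low on both axes and those of d14 and d21 high on both, while Ccl2 spans 0.881 to 40.7 CPM over marker sums of 1051 to 2698 CPM.

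Of 13 genes for CC chemokine receptors taken up here, 9 were tested in the Lean and diet comparisons and 10 in DIO callus. Ccr2, the receptor of Ccl2, Ccl7 and Ccl12, measured 93, 135 and 104 CPM on d3 and 4.76, 22.5 and 21.7 on d10 in Lean callus. Ackr4, a scavenging receptor that binds Ccl19, Ccl21 and Ccl25 and none of the members, went the other way, from 7.41, 15.9 and 19.3 CPM to 22.1, 53.3 and 66.7. Neither overlapped between d3 and d10.

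By edgeR, 2 of 9 receptors, Ccr2 (adjusted p = 0.01175) and Ackr4 (0.02855), changed across the Lean days, near the 19% of all genes that did. Ccr1 passed there too without Lean d10 replicate 1 (0.03019). Ackr4 was lost there without Lean d3 replicate 1 (0.05411) or 2 (0.06861), Lean d5 replicate 2 (0.05177) or Lean d10 replicate 2 (0.07642) or 3 (0.07684). From d3 to d10, where 29.3% of all genes changed, Ccr2 fell by 2.72 ± 0.46 on the log2 scale (0.001728), while Ackr4 rose by 1.77 ± 0.38 (0.006037). Both calls held without any 1 library. From d7 to d10, 1 of 9 passed, beside 2.73% of all genes, with Ccr2 down by 1.99 (0.04263). Ccr2 kept its call without Lean d10 replicate 1 (0.03483). It was lost without any 1 library of Lean d7 (0.07779 to 0.1344) or of Lean d3, or without Lean d5 replicate 1 or 2 (0.05033 to 0.0661). From d3 to d5, 0 passed with edgeR, beside 0.449% of all genes, 2 had an unadjusted p under 0.05 and DESeq2 called 1 (Ccr1). Of the receptors with the highest mean CPM, Ccr2 stood at 66.5, Ccr1 at 34.5 and Ackr4 at 21.8 CPM in the Lean d5 mean.

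In DIO callus 9 of 10 receptors changed across the days, beside 59.1% of all genes, with the smallest adjusted p for Ackr4 (3.342e-08), Ccr7 (1.271e-05), Ccr3 (0.0003047) and Ccr2 (0.0003508). From d3 to d21, 7 rose and 1 fell, beside 45.3% of all genes that changed. Ackr4 rose by 2.85 ± 0.25 (5.159e-07), Ccr7, the receptor that leads dendritic cells and lymphocytes to lymph nodes, by 2.93 ± 0.45 (6.711e-05), Ccrl2, an atypical receptor that binds chemerin, by 2.44 ± 0.47 (0.0004442), and Ackr1, an atypical receptor of venules and red cells, by 1.93 ± 0.44 (0.001879). These 4 calls held without any 1 library. The receptor that fell was Ackr2, a scavenger of inflammatory CC chemokines, named after its values were seen, from 1.98, 2.46 and 2.48 CPM on d3 to 0.979, 1.35 and 1.19 on d21. Its log2 change of -0.97 ± 0.39 (0.04814) did not pass in DESeq2 (0.05169), in the fit with the replicate block (0.05337), without the filter (0.07384) or without any 1 library of d3, d10 or d21, among others, with adjusted p from 0.05048 to 0.1323.

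Ccr2 was high at both ends of the DIO course. After 126, 78.1 and 52.7 CPM on d3 it stood at 30.1, 28.7 and 33.6 on d5. This fall of 1.47 on the log2 scale (adjusted p = 0.01311, edgeR) was the 1 receptor call at that step, beside 1.68% of all genes. It did not pass without DIO d3 replicate 1 (0.0918) or DIO d5 replicate 1 (0.05389) or 2 (0.07195). Ccr2 was at 88.4, 92.5 and 60.6 CPM on d14 and at 89.3, 44.8 and 102 on d21, levels that overlapped those of d3, at a time when Ccl2 and Ccl7 were low. From d7 to d10, 3 receptors changed, beside 13% of all genes, with Ackr4 up by 2.31 (1.149e-05), Ccr7 up by 1.77 (0.02094) and Ccr1 up by 0.81 (0.02558). Of these, Ackr4 held without any 1 library. Ccr7 was lost without DIO d7 replicate 1 (0.08635) or 3 (0.06965) or DIO d10 replicate 1 (0.07912) or 2 (0.05461), and Ccr1 without DIO d7 replicate 2 (0.07607) or 3 (0.08619) or DIO d10 replicate 3 (0.1139). From d14 to d21, 1 passed, Ccrl2, with a rise of 1.47 (0.02884), beside 19.6% of all genes. This call was lost without DIO d14 replicate 1 (0.08692) or 3 (0.1211) or DIO d21 replicate 1 (0.1018).

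Between the diets Ackr4 was the 1 receptor that passed edgeR's test. DESeq2 called Ccr2 and Ccr7 beside it on d5 and d7, and Ccr7 and Ccr9 beside it in the average. In edgeR's test Ccr2 had -1.11 (adjusted p = 0.07281) on d5 and -0.69 (0.0852) on d7, and Ccr7 had -1.87 (0.05543) and -1.86 (0.1468). In the average Ccr7 had -0.98 (0.0724) and Ccr9, the receptor of Ccl25, -1.49 (0.0977), and both passed without Lean d10 replicate 1, with 0.02378 and 0.02636. Ackr4 measured 21, 21.1 and 23.4 CPM in Lean and 12.3, 9.07 and 11.8 CPM in DIO callus on d5. On d7 it measured 31.5, 34.1 and 24.9 against 14.5, 10.9 and 14.2 CPM, with no overlap on either day. The log2 change of Ackr4 was -0.98 ± 0.16 on d5 (adjusted p = 0.04319), -1.18 ± 0.21 on d7 (0.02414) and -0.69 ± 0.17 averaged over d3 to d10 (0.03876), by edgeR. Of all genes 1.08%, 2.32% and 2.46% passed in these 3 comparisons. The d5 call was lost without Lean d5 replicate 1 (0.05355) or 2 (0.1289) or any 1 DIO library of d5 (0.1119 to 0.2133), and the d7 call without Lean d7 replicate 1 (0.08959) or 2 (0.1466) or DIO d7 replicate 1 (0.05723) or 2 (0.0586). The averaged call was lost in 15 of 24 such fits, at most to 0.08302, without DIO d3 replicate 3, and was -0.77 (0.004984) without Lean d10 replicate 1. On d3, 0 of 9 receptors passed with edgeR or DESeq2 and 3 had an unadjusted p under 0.05, and on d10, 0 passed with either tool and 0 had an unadjusted p under 0.05. In the test of a change of the diet difference between days 0 of 9 passed with edgeR, beside 1.65% of all genes. In it 3 had an unadjusted p under 0.05 and DESeq2 called 2 (Ccr2 and Ackr4). The receptors of highest mean CPM, Ccr2, Ccr1 and Ackr4, had log2 changes of -0.36, -0.37 and -1.08 on d3 (adjusted p = 0.5937, 0.383 and 0.2807) and of 1.07, 0.36 and 0.48 on d10 (0.6862, 0.6876 and 0.7392). Without Lean d10 replicate 1, 0 receptors passed on d10 and Ccr2 had 0.62 (0.5022).

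**Figure D5:**
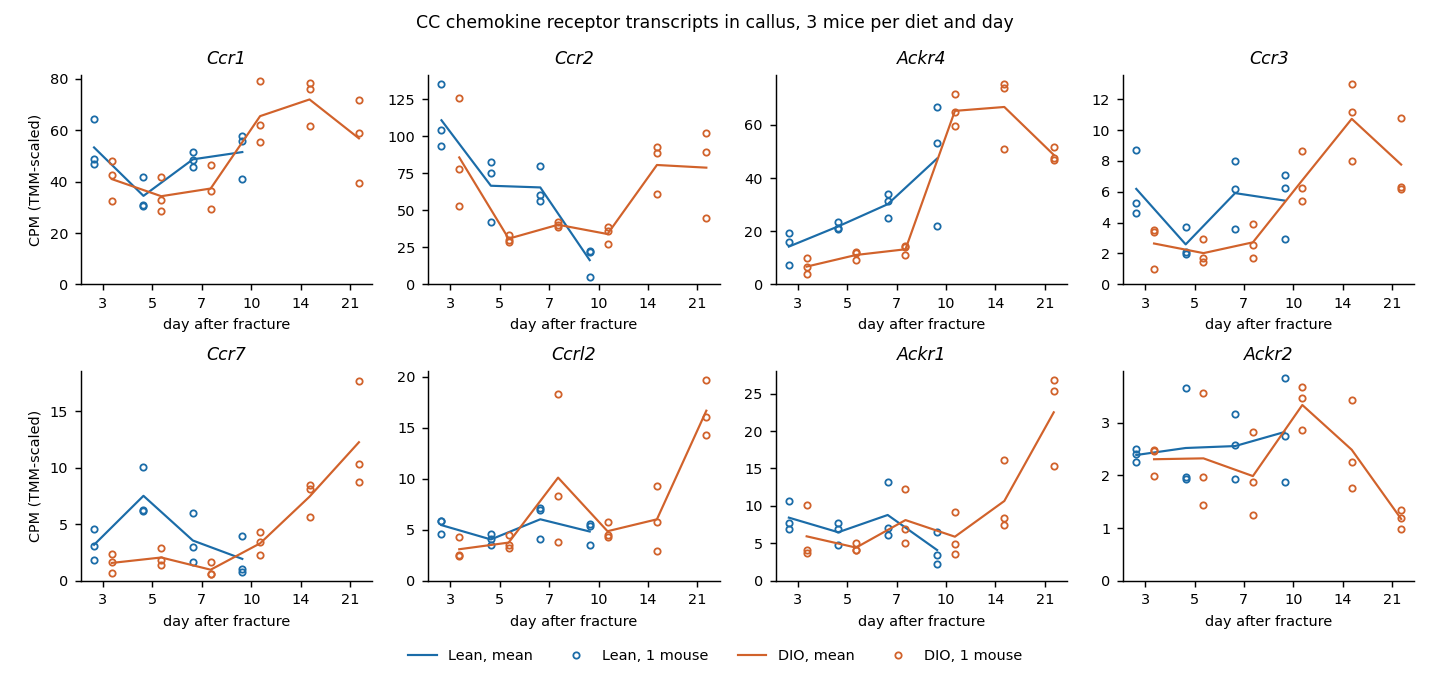
CPM (TMM-scaled, linear axes that start at 0) of 8 CC chemokine receptor genes by day after fracture, 1 point per mouse and a line through the mean of 3 mice for each diet. Ackr4 is higher on the last day than on d3 in both diets, and Ccr2 has DIO means of 80.5 CPM on d14 and 78.7 on d21 after 33.9 on d10.

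The 11 other CC chemokine ligands in the table were little expressed. Between 4 and 6 of them could be tested, and none passed edgeR's test in any Lean or diet comparison. In each of these 0 to 2 had an unadjusted p under 0.05, and DESeq2 called Ccl22 in 3 of them. Those with the highest mean over the groups were Ccl25 at 4.23 CPM, Ccl27a at 3.47 and Ccl11 at 3.16. Ccl26 was at 0 in all 30 libraries. Across the DIO days 3 passed edgeR's test, Ccl27a (adjusted p = 0.005501), Ccl11 (0.00919) and Ccl20 (0.01415), beside 59.1% of all genes.

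Ccl11 (eotaxin-1), which shares the receptor Ccr3 with Ccl24, measured 9.01, 3.48 and 3.33 CPM on d3, 2.7, 6.07 and 1 on d14 and 0.173, 1.06 and 0.57 on d21 in DIO callus. It fell by 3.12 from d3 to d21 (adjusted p = 0.0006708) and by 2.43 from d14 to d21 (0.0137) on the log2 scale, the latter lost without DIO d14 replicate 2 (0.07158) or DIO d21 replicate 1 (0.06876). Ccl20, the ligand of Ccr6, also passed from d3 to d21 (0.01331), with 1.14, 0.451 and 0.666 CPM on d3 and 0 counts in all 9 libraries of d10 to d21.

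The genes whose course was most like that of each member were taken by Pearson's r over the 10 group means of log2 CPM among 14807 genes, as a description. Ccl2 was nearest to Ms4a6d (0.984), Prg4 (0.976) and Fcrlb (0.975), and Ccl7 to Fcrlb (0.981), Rusc2 (0.974) and Prg4 (0.974). Ccl5 was nearest to Gzma (0.985), which encodes a granzyme of cytotoxic lymphocytes, Kcnj8 (0.974) and Il2rb (0.968), a receptor chain for interleukins 2 and 15. Ccl8 was nearest to Lrp11 (0.98), Zdbf2 (0.973) and Phldb2 (0.962). Ccl6 was nearest to Mmrn1 (0.977), Gp9 (0.969) and P2ry1 (0.966), genes known from platelets and megakaryocytes.

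Ccl9 was nearest to Rapgef3 (0.977), Ifi30 (0.955) and Gusb (0.954), and Ccl24 to Ifi30 (0.927), Gpr183 (0.92) and Stra6l (0.914). Ccl12 was nearest to Sptbn5 (0.964), Agpat1 (0.953) and Pdlim7 (0.948). For Ccl4 the nearest were Qpct (0.914), Rheb (0.906) and Lilra6 (0.864), and for Ccl3 Zfp174 (0.845), Tmem170 (0.844) and Rcbtb2 (0.834). Between members, r was 0.855 for Ccl9 with Ccl24, 0.815 for Ccl7 with Ccl8, 0.694 for Ccl3 with Ccl4 and -0.797 for Ccl2 with Ccl5. These values rest on 10 points of the same libraries and carry no test.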

How the data were processed

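Raw counts per gene were deposited by the authors. They had prepared stranded mRNA libraries from 200 ng of total RNA, sequenced 2 x 53 cycles, trimmed reads with BBDuk, aligned them with HISAT2 2.1.0 to GRCm38 and counted with HTSeq without normalization. The annotation and strand option of the counting were not given in the sources used here. Of 43629 genes, 42548 matched GENCODE M21 by identifier, and 27445 had at least 1 count.

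Groups were taken from the labels, with 3 mice each. The members, the lists of receptors, other ligands and markers and the tests were chosen with earlier results of these data known. Counts were tested with edgeR 4.0.16 (R 4.3.3; TMM factors, filterByExpr defaults, quasi-likelihood F-test, p adjusted by Benjamini-Hochberg over all genes tested, threshold 0.05). Days of 1 diet were fitted together (12 Lean or 18 DIO libraries), diets within a day on 6 libraries, and the average and interaction on 24 libraries. CPM are TMM-scaled without a prior count, and log2 CPM for likeness has a prior count of 2, with genes of mean CPM of at least 1. Coding sequences and positions come from GENCODE M21, promoters from RefSeq. All members were named throughout, and of receptors and other ligands at most 4 per comparison by smallest adjusted p (where none passed, the 3 of highest mean CPM). Alternatives were DESeq2 1.42.0, RLE factors, no filter but 1 count, all 30 libraries in 1 fit, the replicate number as a block and leaving out each library in turn. The fitting was tested on simulated data. Some items are not reported here. No libraries within a group agreed within sampling noise.

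The total counts of 13247122 to 26365620 set the precision, and 3 counts, the detection floor, correspond to about 0.2 CPM, which covers counting error only.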

Additional observations from a re-analysis of the deposited data

Results flagged for a closer look

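Among the members and the receptors detected in all libraries, 2 genes had DIO libraries below all Lean ones on some days and above all of them on another. No difference on a single day passed edgeR's test for either. The share of all genes with such a pattern was not counted, so these 2 cannot be set against it. For Ccl6 every DIO library lay below every Lean library on d5 and d7, with a DIO mean 0.403 and 0.522 times the Lean mean, and above every Lean library on d10, at 1.99 times the Lean mean. For Ccr2, the receptor of Ccl2, the DIO mean was 0.463 times the Lean mean on d5, 0.615 times on d7 and 2.08 times on d10, again without overlap. The edgeR test of a change of the diet difference between days did not pass for either, with adjusted p = 0.1363 for Ccl6 and 0.09465 for Ccr2. The Lean d10 group of both holds replicate 1, the library low in neutrophil markers, with 10.8 CPM of Ccl6 and 4.76 CPM of Ccr2. Without it the DIO mean on d10 was 1.45 times the Lean mean for Ccl6 and 1.54 times for Ccr2, and the test of a change between days gave adjusted p = 0.2628 and 0.1224. On d10 both genes were also lower in the other 2 Lean mice than in every DIO mouse. Groups of 3 mice are too small for a check of single outlying libraries.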

How the results depend on the processing

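Scaling with RLE factors changed no count of calls by over 1.5 times. Refits of single members were followed for tests of several days, which have no direction, and for other comparisons where the unadjusted p was under 0.05. Changes with a larger unadjusted p were not followed. Of these refits 1437 kept their side of the threshold and any direction, 68 passed it in addition and 44 no longer passed. In 2 the direction turned, which are the changes of Ccl3 (1.03) and Ccl4 (0.53) in DIO callus from d7 to d10 without DIO d7 replicate 1. Over the libraries left out these changes of Ccl3 and Ccl4 ran from -2.54 to 1.03 and from -2.89 to 0.53. For the receptors and other ligands called in the main fits, the call held in 710 refits and did not in 70. The causes were not tested. With all 30 libraries in 1 fit Ccl4 in Lean d10 against d3 (adjusted p = 0.08822, edgeR) and Ccl6 in DIO d21 against d3 (0.07816) no longer passed, nor did Ccr2 in DIO d5 against d3 (0.05423) and Ackr4 between diets on d5 (0.164). With 3 mice a group the calls between diets rest on single mice, and genes near 1 CPM are measured on few counts.

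The number of genes called changed as follows. DESeq2 called 4777 across the Lean days (edgeR 3132), 596 for Lean d5 against d3 (74), 1773 for Lean d10 against d7 (450), 580 for DIO d5 against d3 (285), 753, 1116, 922 and 56 between diets on d3, d5, d7 and d10 (0, 170, 366 and 0), 1097 for the averaged diet difference (419) and 1130 for its change between days (282). Without the filter edgeR called 169 for Lean d5 against d3, 478 for DIO d5 against d3, 515, 565, 724 and 29 between diets on d3, d5, d7 and d10, 633 for the average and 503 for the change. With all 30 libraries in 1 fit it called 202 for Lean d5 against d3, 1529 for Lean d10 against d7, 63, 675 and 3 between diets on d5, d7 and d10 and 653 for the average.

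The number of members called changed as follows. DESeq2 called 1 for Lean d5 against d3, 5 for Lean d10 against d7, 1 each for DIO d5 against d3 and DIO d21 against d14, 1, 2 and 3 between diets on d3, d5 and d7, and 2 for the change between days. Without the filter edgeR called 3 for Lean d10 against d7, 1 for DIO d5 against d3, 4 for DIO d10 against d7, 1 for DIO d21 against d14 and 2 and 3 between diets on d5 and d7. With all 30 libraries in 1 fit it called 3 for Lean d10 against d7, 1 for DIO d21 against d14 and 2 between diets on d7.

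The sample titles hold no replicate number, and the numbers used here follow the order of the samples within each group. Libraries of the same number in different groups are different mice, and the main fits did not pair them. Deviations of same-numbered libraries had correlations from -0.399 to 0.364. Over the Lean days their mean was 0.127, against -0.0632 for libraries of other numbers. Over the DIO days it was -0.018 against 0.00897. Deviations within a group cancel out, so the mean for other numbers follows from that for same numbers. It is no separate baseline. Whether the numbers mark something shared by the Lean libraries was not tested. With the replicate block edgeR called 199 genes for Lean d5 against d3, 1479 for Lean d10 against d7, 325 between diets on d3 and 0 on d5, and 4 members for Lean d10 against d7, 0 between diets on d5 and 1 on d7. In the replicate block fit Ccl3 (0.2391) and Ccl4 (0.1342) across the DIO days and Ccl5 (0.2038) and Ackr4 (0.2146) between diets on d5 did not pass.

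Leaving out 1 library at a time gave 1678 to 3130 genes across the Lean days, 9 to 251 for Lean d5 against d3, 24 to 1141 for Lean d10 against d7, 2863 to 5016 for Lean d10 against d3, 90 to 354 for DIO d5 against d3 and 1285 to 4070 for DIO d21 against d14. Between diets it gave 0 to 237 on d3, 0 to 935 on d5, 29 to 936 on d7, 0 to 10 on d10, 32 to 1485 for the average and 0 to 602 for the change between days. Of members it gave 0 to 2 for Lean d10 against d7, 0 to 1 for DIO d5 against d3, 2 to 6 for DIO d10 against d7, 0 to 1 for DIO d21 against d14, 0 to 2 and 0 to 4 between diets on d5 and d7 and 0 to 2 for the average.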
